A study of Rattus norvegicus with 11 samples.

Results

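The comparison of rat spinal cord 1 month after contusion with sham-operated spinal cord is described here for every gene expressed in either group. A gene was a member when its FPKM (a read density scaled to transcript length and library size) was over 1 in at least 1 of the 6 libraries compared. By this rule 14437 of the 30443 genes in the tables were members, 13507 protein-coding and 930 lncRNA genes. A gene nearly absent from 1 group could be a member only through the other group. The very large folds of such genes below therefore rest in part on this rule. The 1M group comprised female Sprague-Dawley rats with a moderate contusion at the ninth thoracic vertebra, collected 1 month later at the epicenter. The control group comprised female Sprague-Dawley rats that had a laminectomy without contusion, collected 6 months after surgery at the matching level. The labels give 12 to 14 weeks as the age of all rats and name no genetic modification. If this was the age at surgery, the control rats were older at collection than the 1M rats. Each of the 3 libraries of 1M and 3 of control holds poly-A selected RNA pooled from 3 rats, so a replicate is a pool and the spread between single rats is not visible. The whole series has 11 libraries, and the 3 libraries collected 3 months after contusion (3M) serve below as a second comparison.

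No processing batch held both 1M and control libraries. Injury, batch, the different time since surgery and any difference in age at collection therefore cannot be told apart in the comparison with control. The 1M libraries held 49986531, 25715030 and 22925109 counts and the control libraries 11663845, 10057646 and 19241259, which leaves low genes less well measured in control. A level of 3 counts, taken as the limit that a count of 0 allows, was 0.0607 to 0.123 CPM (counts scaled to the library size, corrected by TMM, the trimmed mean of M values) at 1M and 0.171 to 0.356 CPM in control, for counting error only. In 62 members the counts were 0 in all 6 libraries although their FPKM passed 1, among them the endothelial claudin gene Cldn5 and the ferritin heavy chain gene Fth1, and these members could not be tested. Defining genes of spinal cord were present in both groups, including those of motor neurons, oligodendrocytes and astrocytes given below.

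A contusion kills neurons and oligodendrocytes at its centre and cuts axons that pass through it, and myelin debris stays in the tissue long after. Microglia and monocyte-derived macrophages take up this debris, digest it in lysosomes and must store or export its cholesterol, while astrocytes, fibroblasts and vessel cells build a scar around them. In bulk tissue, fewer cells of a type and less RNA per cell cannot be told apart, and the gene groups below are levels in the tissue, not numbers of cells.

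Most members differed between 1M and control in the count test. Of the 14437 members, 3726 (25.8%) rose and 4671 (32.4%) fell at an adjusted p under 0.05 (edgeR's quasi-likelihood test, Benjamini-Hochberg adjustment over all tested genes), and the median log2 fold change was -0.06. For 8953 members (62.0%) the CPM of the 1M and control libraries did not overlap. At the stricter threshold of a differentially expressed gene (DEG, adjusted p under 0.01 and fold change over 2), 1443 protein-coding genes (10.7%) were upregulated and 919 (6.80%) downregulated, with 83 lncRNAs (8.92%) upregulated and 122 (13.1%) downregulated. These shares are the background for each gene group below.

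How the directions balanced changed with the scaling method and with the libraries in the fit. Scaling by total counts gave 1893 protein-coding DEGs that rose and 446 that fell, and scaling by the upper quartile 1693 and 625, so that upregulated genes made up 80.9% and 73.0% of the DEGs in place of 61.1%. At an adjusted p under 0.05, 5057 members rose and 3008 fell with total counts, and 4464 rose and 3679 fell with the upper quartile. The excess of falls thus turned under both. It held with the size factors of DESeq2 (3919 rose, 4411 fell). On the TMM scale it turned in a fit of the 6 libraries alone (3661 rose, 3282 fell). Scaling by total counts and by the upper quartile raised the median log2 fold change of the members by 0.21 and 0.12. All values below are on the TMM scale. Without control replicate 2 there were 566 downregulated protein-coding genes and 76 downregulated lncRNAs, without 1M replicate 3 there were 607 downregulated protein-coding genes, and without 1M replicate 2 there were 53 upregulated lncRNAs.

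**Figure D1:**
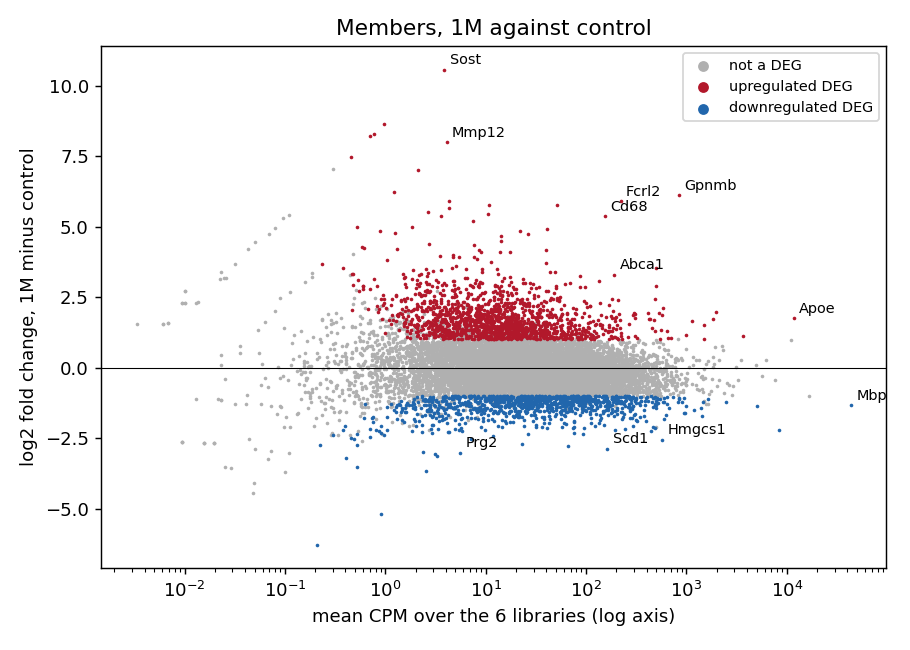
Log2 fold change of each member with counts, 1M minus control (vertical axis), against its mean level over the 6 libraries in CPM (horizontal log axis). Red points are the upregulated and blue points the downregulated DEGs, and some genes of the text are marked, with Gpnmb at 6.11 and Hmgcs1 at -2.55, while the fitted values of genes with 0 or 1 control count, such as Sost and Mmp12, are no bound.

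Phagocyte genes were among the largest rises. Gpnmb, which encodes a glycoprotein of lipid-laden phagocytes, had 2117, 1588 and 1280.1 CPM in the 1M libraries, against 24.5, 21.8 and 25.8 CPM in the control libraries. Mmp12, the macrophage elastase, had 13.5, 5.68 and 5.19 CPM at 1M against 0, 0 and 0.057 CPM in control. Atp6v0d2, a proton pump subunit best known from osteoclasts, had 2.69, 2.51 and 2.09 CPM at 1M against 0.0933, 0 and 0 CPM in control. Mmp12 and Atp6v0d2 were nearly absent from control, and Gpnmb was well measured in both groups, at a log2 fold change of 6.11 ± 0.20 (adjusted p = 1.61e-07). Control held a single count of Mmp12 and of Atp6v0d2, so their ratios of pooled counts, 345 (95% counting interval 61.7 to 13622) and 91.6 (16.3 to 3631), are loosely bounded above. Without 1M replicate 1 the ratio of Mmp12 was 200.1, and without control replicate 3 that of Atp6v0d2 was 47.8. Without the control library that holds the count, they were at least 59.9-fold and 21.6-fold higher.

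Of 15 measured genes of foamy phagocytes and osteoclast-like cells, 13 rose and 1 fell, with a median log2 fold change of 2.09. Spp1, the secreted phosphoprotein osteopontin, had 1069.8, 789.5 and 987 CPM in the 1M libraries, against 226, 227 and 199 CPM in the control libraries, a log2 fold change of 2.13 ± 0.25. Fabp4, a fatty acid carrier of macrophages, rose by 4.11 ± 0.45, Plin2, a coat protein of lipid droplets, by 2.17 ± 0.091, and Lpl, which releases fatty acids from lipoproteins, by 1.7 ± 0.18. Genes shared with bone-resorbing cells rose as well, the collagenolytic protease Ctsk by 1.72 ± 0.21 and the phosphatase Acp5 by 1.62 ± 0.28 (largest adjusted p of these 6 genes = 8.96e-04). The gene that fell was Tnfrsf11a, the receptor RANK, with 29.3, 27.8 and 27 CPM at 1M against 55.9, 48.4 and 43 CPM in control. It was lower in every 1M library than in any control library.

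Microglial genes rose both in the group tied to disease and in the group tied to rest. Of 19 genes of disease-associated microglia, 18 rose and none fell (median log2 fold change 1.74), and the exception, the chemokine gene Ccl6, had -0.093. Cd68, a lysosomal glycoprotein of phagocytes, had 380.1, 287 and 244 CPM in the 1M libraries, against 7.65, 5.81 and 8.26 CPM in the control libraries, and the groups lay far apart. Clec7a, the receptor dectin-1, rose by 4.91 ± 0.24 and the integrin gene Itgax by 3.92 ± 0.26. Trem2, a receptor for lipids, rose by 2.3 ± 0.19 and its signalling partner Tyrobp by 2.3 ± 0.25 (largest adjusted p of these 4 genes = 5.22e-05). Apoe, the lipid carrier of the nervous system, had the largest rise of any gene in CPM, with 22006, 17482 and 14386 CPM in the 1M libraries, against 4027, 7079 and 4977 CPM in the control libraries.

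Of 15 genes known from resting microglia, 12 rose and none fell (median 1.57). Fcrl2, whose synonym Fcrls names a microglial gene in mouse, had 499.7, 418 and 388 CPM in the 1M libraries, against 4.76, 7.82 and 9.12 CPM in the control libraries. The fractalkine receptor gene Cx3cr1 rose by 2.32 ± 0.24 and the ADP receptor gene P2ry12 by 1.87 ± 0.18. Tmem119, a marker of resident microglia, did not pass the test, with 32.8, 57.6 and 32.1 CPM in the 1M libraries, against 28.6, 39.1 and 39.7 CPM in the control libraries. The Tmem119 libraries overlapped, while those of Fcrl2 did not. The 15 genes together ranged from 2018 to 2176 CPM per library at 1M and from 604 to 731 CPM in control.

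Among scavenger receptors and other surface genes of macrophages, 11 of 13 rose (median 1.96). Lilrb4, an inhibitory immunoglobulin-like receptor of myeloid cells, had 105, 105 and 93 CPM in the 1M libraries, against 2.24, 0.948 and 2.17 CPM in the control libraries. Its relative Lilrb3 rose too, with 18, 9.71 and 16.4 CPM at 1M against 0.933, 0.237 and 0.114 CPM in control. Control was below 1M in every library of both, although reads of such similar genes may have been shared or lost in counting. The scavenger receptor gene Msr1 rose by 3.1 ± 0.32 and the integrin gene Itgb2 by 2.85 ± 0.12. Cd163, which takes up hemoglobin, had 0.39 ± 0.36 and did not pass (adjusted p = 0.378). Of 6 genes of Fc receptors, their signalling chain and the related Fcrl2, 5 rose. Among them were the receptor gene Fcgr2b, by 2.96 ± 0.17, and the signalling chain gene Fcer1g, by 2.44 ± 0.16. Fcrl2 was also counted in the lists of resting microglia and of macrophage surface genes. All 6 subunit genes of the phagocyte NADPH oxidase, the enzyme of the oxidative burst, rose, from Cyba at 1.21 ± 0.26 to Ncf1 at 3.07 ± 0.14 (largest adjusted p of the 6 = 0.00327).

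**Figure D2:**
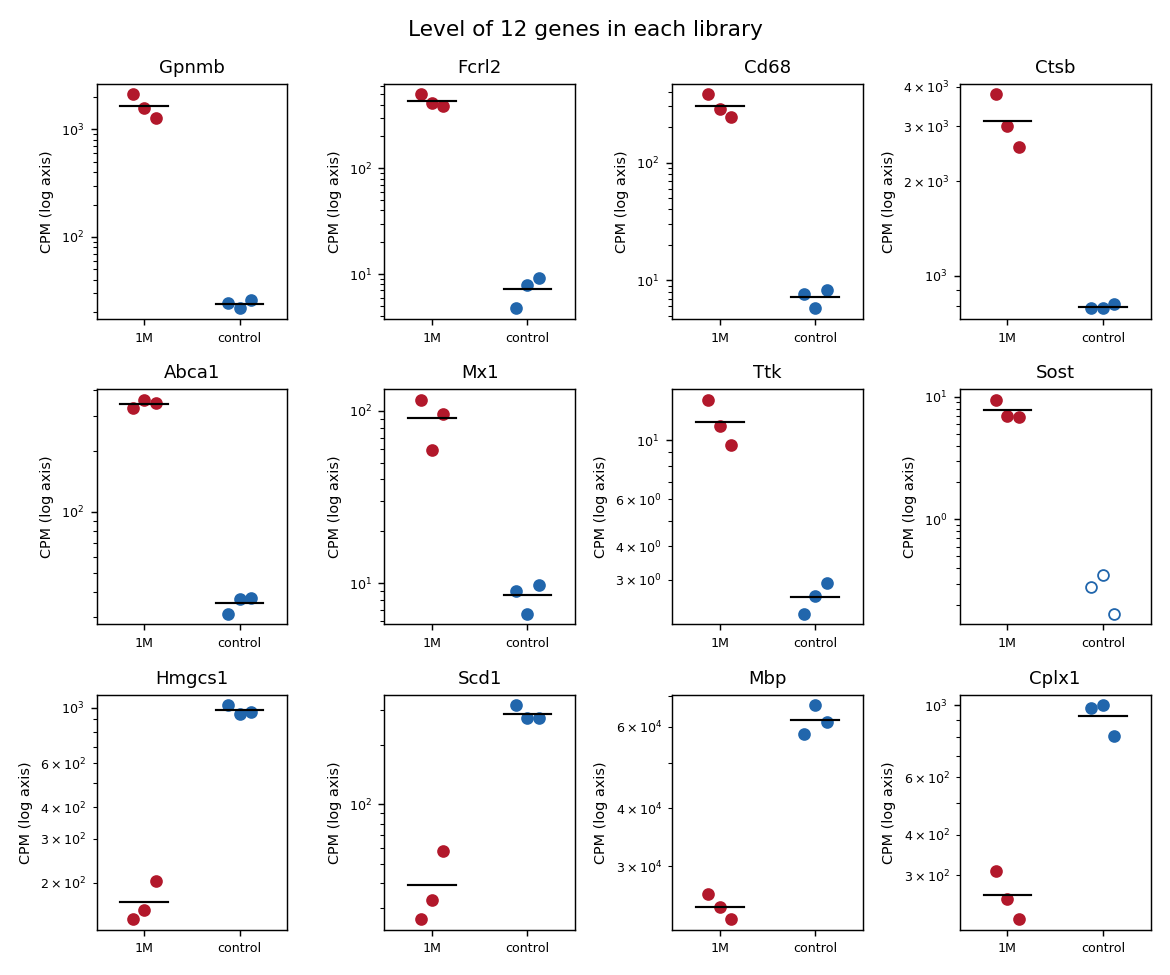
CPM of 12 named genes in each library on a log axis, with 3 points for 1M on the left and 3 points for control on the right of each panel and a bar at the group mean. Libraries with 0 counts are drawn as open points at the level of 3 counts in that library. The 12 genes were picked among those whose groups do not overlap.

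Genes of the lysosome did not move as a single group. Of 11 cathepsin genes, which encode lysosomal proteases, 10 rose and 1 fell (median 1.47). Ctsb had 3784, 3008 and 2577 CPM in the 1M libraries, against 792, 789.9 and 814 CPM in the control libraries, and Ctsd rose by 1.74 ± 0.18. Ctsc, which activates granule proteases, rose most, by 2.17 ± 0.16, while Ctsf fell by 0.50 ± 0.12 on the log2 scale (largest adjusted p of these 4 genes = 0.00468). Of 20 genes that break down glycans and sphingolipids or carry their products, 13 rose and 2 fell (median 0.78). Npc2, which binds free cholesterol in the lysosome, had 2040.3, 1674 and 1448 CPM in the 1M libraries, against 435, 635 and 581 CPM in the control libraries. Galc, which cleaves the myelin lipid galactosylceramide, rose by 1.36 ± 0.21, and the acid sphingomyelinase gene Smpd1 fell, at -0.57 ± 0.095. The summed level of these 20 genes was 7237 to 8603 CPM at 1M and 4749 to 5862 CPM in control.

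Genes of the proton pump that acidifies the lysosome, the vacuolar ATPase, were mostly lower. Of 21 measured subunit genes 2 rose and 14 fell (median -0.53), and the number that fell was 10 with total counts and 13 with the upper quartile, so fewer fell under these scalings. The 2 that rose were Atp6v0d2, given above, and Tcirg1, the a3 subunit that osteoclasts need, with 222, 181 and 160.2 CPM in the 1M libraries, against 62, 66 and 66 CPM in the control libraries (1.54 ± 0.13). Neither gene overlapped between the groups. Atp6v1g2, a subunit typical of neurons, fell most, with 142, 105 and 84.9 CPM in the 1M libraries, against 299, 324 and 264 CPM in the control libraries (-1.42 ± 0.28), and Atp6v1b2 fell as well, at -0.94 ± 0.17. The housekeeping subunit Atp6v0d1, which Atp6v0d2 can replace, fell to 333, 278 and 259.5 CPM at 1M against 383, 513 and 375 CPM in control. With a test on FPKM in place of counts, 7 subunits rose and 6 fell, so the balance of this list held for counts and not for FPKM. Neuronal genes, given below, fell in the same libraries, and their part in the change of the pump was not tested.

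**Figure D3:**
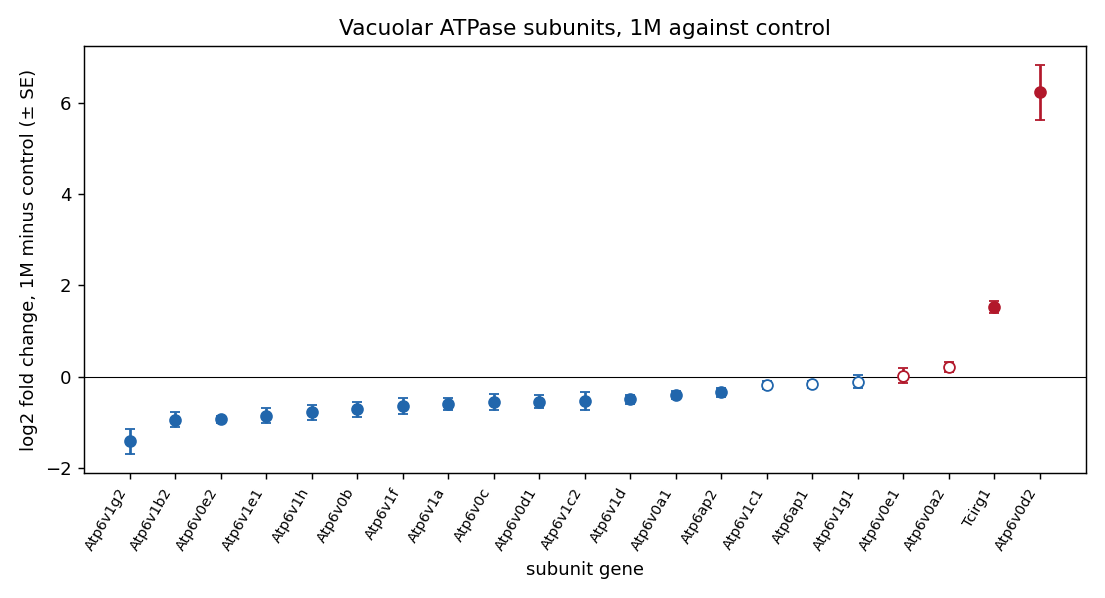
Log2 fold change, 1M minus control, of 21 vacuolar ATPase subunits ± SE, ordered by size, with filled points for subunits that passed at an adjusted p under 0.05. Filled points of Atp6v0d2, whose fitted value rests on 1 control count, and Tcirg1 lie above 0 and those of 14 subunits lie below it.

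The CLEAR core TCACGTGA, a motif of lysosomal genes, was looked up on both strands of promoters of 300 bases (RefSeq, GRCr8, 250 before to 50 after the start). It stood in 0.777% of 33469 promoters, in 1 of 13 matched promoters of the glycan and sphingolipid genes and in 2 of 16 of the pump. The windows of Galc (chr6:123245543-123245610 on the minus strand), which rose, and Atp6v0d1 (chr19:50357264-50357331 on the minus strand), which fell, are shown because the same 8 letters stand near the start of genes that moved in opposite directions. Capitals mark the match.
Galc: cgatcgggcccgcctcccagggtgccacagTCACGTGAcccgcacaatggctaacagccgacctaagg
Atp6v0d1: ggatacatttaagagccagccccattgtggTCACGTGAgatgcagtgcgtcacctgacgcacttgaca
The match starts at base -21 from the start of Galc and at base -53 from the start of Atp6v0d1. A match of letters is not a measured binding site. The sterol regulatory element TCACNCCAC stood in 0 of 16 matched promoters of cholesterol synthesis genes (1.12% of all promoters) and the PU box GAGGAAGT in 0 of 14 of disease-associated microglia genes (2.42% of all), which says only that these letters are not in these windows.

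Genes of cholesterol synthesis fell and genes of cholesterol export rose. Of 23 genes of cholesterol synthesis and uptake, 22 fell and none rose (median -1.86), and 20 were downregulated DEGs. Hmgcs1, which makes the precursor of mevalonate, had 143, 155 and 202 CPM in the 1M libraries, against 1024, 945 and 963 CPM in the control libraries. Tm7sf2, a sterol reductase, had 16, 16.1 and 17.8 CPM at 1M against 98.3, 129.5 and 117 CPM in control. Sqle, which makes squalene epoxide, had a log2 fold change of -1.79 ± 0.11 (largest adjusted p of these 3 genes = 1.41e-06). The sterol genes fell alike in the 3 libraries of 1M, where the 23 genes summed to 1406 to 1557 CPM, against 5641 to 6064 CPM in control. Only Stard4, a cholesterol carrier, did not pass (adjusted p = 0.815).

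Of 15 targets of the sterol-sensing receptor LXR and genes of lipid efflux, 14 rose and none fell (median 1.36). Abca1, which exports cholesterol, had 328, 359.5 and 346 CPM in the 1M libraries, against 31.3, 37.1 and 37.4 CPM in the control libraries (3.29 ± 0.12). Soat1, which esterifies cholesterol for storage in droplets, had 32.3, 34.8 and 38.1 CPM at 1M against 7.47, 2.96 and 4.79 CPM in control (2.77 ± 0.24), and Pltp, a phospholipid carrier, rose by 1.93 ± 0.12. The groups of these genes did not overlap (largest adjusted p = 1.29e-05). Fatty acid synthesis followed the sterol genes in part, with 8 of 13 lower, 1 higher and a median of -0.49. The desaturase gene Scd1 had 26.4, 33.1 and 58.1 CPM in the 1M libraries, against 315, 272 and 272 CPM in the control libraries, and the fatty acid synthase gene Fasn fell, at -0.97 ± 0.095. Srebf1, the regulator of this pathway, was the one that rose, at 1.01 ± 0.091 (adjusted p = 1.63e-05). With total counts or the upper quartile 7 fell and 2 rose, and the number that rose was 2 without 1M replicate 1 or control replicate 2 and 3 without control replicate 1. Mature oligodendrocytes make much sterol for myelin, and their genes fell in the same libraries (myelin genes, below), but the part of this in the sterol change was not tested.

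All 21 measured interferon-responsive genes rose (median log2 fold change 2.08), and 20 of them were upregulated DEGs. Mx1, which blocks viral replication, had 116, 59.6 and 95.7 CPM in the 1M libraries, against 8.96, 6.64 and 9.8 CPM in the control libraries. Ddx60, a helicase that senses RNA, had 4.13, 4.5 and 7.93 CPM at 1M against 0.653, 0.119 and 0.627 CPM in control, and Oas2, a synthetase activated by RNA, rose by 2.73 ± 0.26. The 1M libraries were higher than all control libraries in each of these genes, with 1M replicate 1 the highest for Mx1. The transcription factor gene Irf7 rose by 1.88 ± 0.27 (largest adjusted p of these 4 genes = 2.76e-04). Summed over the list, the level ranged from 788 to 1218 CPM at 1M and from 323 to 365 CPM in control.

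The core of the interferon-stimulated response element, GAAANNGAA on either strand, stood in 10 of the 14 promoters that could be matched (71.4%) and in 9.71% of 33469 promoters of the same length. All 14 genes rose, so these shares do not show that the motif goes with the change. The members with the largest changes that hold it were Ddx60 (chr16:33208840-33208942 on the minus strand), Ifit3 (chr1:241527253-241527340 on the plus strand) and Rsad2 (chr6:48788228-48788296 on the minus strand), shown from RefSeq, build GRCr8, in the direction of the gene with matches in capitals.
Ddx60: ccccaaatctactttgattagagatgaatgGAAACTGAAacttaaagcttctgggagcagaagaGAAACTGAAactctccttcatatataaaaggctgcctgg
Ifit3: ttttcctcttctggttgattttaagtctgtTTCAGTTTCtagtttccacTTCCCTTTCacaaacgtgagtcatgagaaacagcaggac
Rsad2: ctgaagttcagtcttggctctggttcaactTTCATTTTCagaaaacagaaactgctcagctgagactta
Ddx60 holds 2 matches, the first from base -73, and Ifit3 holds 2 on the other strand, the first from base -43. In Rsad2 the match begins at base -146. Ifit3, an antiviral protein gene, had 35.8, 17 and 32.4 CPM in the 1M libraries, against 5.97, 3.08 and 4.22 CPM in the control libraries, and Rsad2, which encodes viperin, had 47.4, 25.7 and 58.4 CPM at 1M against 6.81, 10.2 and 7.69 CPM in control. The lowest 1M library was above every control library in both.

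Most measured genes of complement, of chemokines and of cytokines and their brakes rose as well. Of 15 complement genes, 12 rose and none fell (median 1.52). C3, the central component, had 438, 447 and 522 CPM in the 1M libraries, against 185, 95.2 and 136 CPM in the control libraries, and the first component genes C1qa, C1qb and C1qc rose by 1.69 ± 0.28, 1.91 ± 0.21 and 1.77 ± 0.22. Of 22 chemokine and receptor genes, 15 rose and 2 fell, and 1 fell with total counts, with the upper quartile and without each single library other than control replicate 3. Ccl21, which guides lymphocytes and dendritic cells, had 17.1, 5.17 and 2.86 CPM in the 1M libraries, against 0.0933, 0.237 and 0.171 CPM in the control libraries, spread widely within 1M. Ccl3, a macrophage chemokine, rose by 4.0 ± 0.38 and Cxcl14 by 2.89 ± 0.16, with Cxcl14 at 1034, 842 and 739 CPM at 1M against 94.7, 134 and 125 CPM in control. Ccl19, which shares the receptor of Ccl21, fell by 0.87 ± 0.24 on the log2 scale (adjusted p = 0.0116). Reads of Ccl21 may be shared with near copies in the genome. Of 11 cytokine genes and their brakes, 10 rose (median 1.59), led by the signalling inhibitor gene Socs3 at 2.78 ± 0.28 and the NF-κB inhibitor gene Tnfaip3 at 2.07 ± 0.30. Il1b, Il6 and Il10 did not reach an FPKM over 1 in these 6 libraries.

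Most lymphoid genes did not pass or were too low to test. Of 7 MHC class II genes, which present antigen, RT1-DMb rose, by 1.22 ± 0.37, and none fell (2 rose without control replicate 1). Cd74, the invariant chain of these molecules, had 336, 529 and 366 CPM in the 1M libraries, against 555, 251 and 286 CPM in the control libraries (0.17 ± 0.36, adjusted p = 0.709). Control replicate 1 was above both other controls for Cd74, so the groups overlapped. Of 4 T cell genes that were measured, Cd8b had 11.4, 7.68 and 6.26 CPM at 1M against 0.187, 0 and 0.171 CPM in control, Cd8a rose by 3.93 ± 0.46 and Cd4 had 83.7, 89 and 103 CPM at 1M against 22.9, 8.89 and 17.7 CPM in control (2.46 ± 0.26). Cd3g, a chain of the T cell receptor complex, did not pass, with 0.688, 0.886 and 0.613 CPM at 1M against 0.467, 0.119 and 1.03 CPM in control, and Cd3d, Cd3e, Cd247 and Lck did not reach an FPKM over 1. In rat, Cd4 and Cd8 are also made by macrophages. Of 5 genes of B and plasma cells, 2 rose without control replicate 1 and 1 with all libraries. Tnfrsf13c, the receptor for the survival factor BAFF, rose, with 5.12, 5.06 and 4.79 CPM in the 1M libraries, against 1.21, 0.948 and 1.25 CPM in the control libraries, while the B cell receptor chain gene Cd79a had 0.52 and did not pass (adjusted p = 0.438).

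Genes of blood and marrow granulocytes were lower at 1M. Of 11 granule genes, 10 fell and 1 rose (median -2.4). Prg2, a granule protein of eosinophils, had 1.98, 0.923 and 0.573 CPM in the 1M libraries, against 4.39, 13 and 12.4 CPM in the control libraries. S100a8, a calcium-binding protein of neutrophils, had 2.69, 2.33 and 1.19 CPM at 1M against 4.29, 16.4 and 16 CPM in control. The defensin gene Np4 had 1.03, 0.517 and 0.368 CPM at 1M against 2.15, 7.23 and 8.32 CPM in control, and reads of the defensin family may be shared between copies. In all 3 genes control replicate 1 was lowest of the controls, closest to 1M replicate 1. Defa24, another defensin, had no count in the 1M libraries and 14 counts in control, at least 12.8-fold lower at 1M when 3 counts over the group are allowed, and at least 6.55-fold without 1M replicate 1. Their part in the other changes was not tested. Lcn2, made by neutrophils and by reactive astrocytes, was the one that rose, at 1.45 ± 0.45, and did not pass without 1M replicate 1 (adjusted p = 0.0697), without control replicate 1 (0.0578) or with 1 batch per group (0.0582). With 1 batch per group (without 1M replicate 3 and control replicate 3), 5 of the 11 genes fell. The hemoglobin chain gene Hbb did not pass, with 591, 368 and 344 CPM at 1M against 112, 351 and 376 CPM in control.

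Genes of neighbouring tissues were low but not equal between groups. Of 8 skeletal muscle genes 1 rose and 5 fell (3 without 1M replicate 3), and the list summed to 40.9 to 62.2 CPM at 1M and 148 to 253 CPM in control. Most of that sum was Pvalb, which spinal neurons also make, and Tnnc2, the fast troponin C, which had 6.98, 5.46 and 5.85 CPM in the 1M libraries, against 27.1, 55.3 and 37.5 CPM in the control libraries. Of 6 genes of sensory ganglia, 3 fell and 1 rose (2 without 1M replicate 1), and the nociceptor channel genes Scn10a and Scn11a did not reach an FPKM over 1. Of 8 bone and cartilage genes 2 rose and 3 fell. Sost, which encodes sclerostin, a WNT inhibitor of osteocytes, had 9.42, 6.94 and 6.79 CPM in the 1M libraries, against 0, 0 and 0 CPM in the control libraries. With no count in any control library it was at least 99.3-fold higher at 1M, and at least 51.8-fold without control replicate 3. It was a member through the 1M libraries alone. Runx2, a regulator of bone formation, rose by 1.85 ± 0.18, while Bglap, the osteocalcin gene of osteoblasts, had -2.21 ± 0.97 (adjusted p = 0.0731, 0.0146 without control replicate 1) and 0.06 without control replicate 3, and the osteocyte genes Dmp1, Phex and Mepe did not reach an FPKM over 1.

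Genes of dividing cells were higher at 1M. Of 19 mitosis genes, 15 rose and none fell (median 1.2). Ttk, a kinase of the spindle checkpoint, had 14.2, 11.3 and 9.57 CPM in the 1M libraries, against 2.24, 2.61 and 2.91 CPM in the control libraries. Top2a, which untangles chromosomes, had 18.4, 16.1 and 12 CPM at 1M against 3.55, 4.5 and 5.87 CPM in control, and Mki67, the proliferation marker, had 19, 17.1 and 14.8 CPM at 1M against 5.41, 5.1 and 6.04 CPM in control. No control library reached the lowest 1M library in these genes, and their log2 fold changes were 2.16 ± 0.20, 1.72 ± 0.29 and 1.61 ± 0.21 (largest adjusted p = 7.26e-04). Aurka, Birc5, Cdc20 and Kif20a did not pass, and Cdc20 did without 1M replicate 3. Of 22 DNA replication genes 12 rose and 6 fell (median 0.36). Rrm2, a subunit of ribonucleotide reductase, had 4.61, 3.69 and 2.86 CPM in the 1M libraries, against 0.747, 0.474 and 1.14 CPM in the control libraries (2.15 ± 0.40), and the helicase genes Mcm3 and Mcm6 rose by 1.23 ± 0.19 and 1.05 ± 0.15. E2f1, a transcription factor of this step, had 33.2, 28.7 and 24.1 CPM at 1M against 68.6, 79.9 and 61.1 CPM in control and fell by 1.28 ± 0.17 on the log2 scale (adjusted p = 1.83e-04). The number that fell was 4 with total counts, and leaving out a single library gave 8 to 11 genes that rose.

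The cell cycle homology region TTTGAA stood in 11 of 15 matched mitosis promoters (73.3%), against 18.3% of 33469 promoters. The E2F site TTTNGCGC stood in 11 of 18 matched replication promoters (61.1%), against 1.28% of all. Of the matched genes that passed, 9 of 11 mitosis and 9 of 15 replication promoters held their motif. The E2F site also stood in Rfc3, which fell, and in Cdt1 and Mcm7, which did not pass. TTTGAA stood in Birc5 and Cdc20, which did not pass. The lists hold known cell cycle genes, so these shares do not show that a motif goes with the change. Both strands were searched, and an E2F site can match itself on both strands at overlapping bases, as in Mcm6. The promoters of Ttk (chr8:93634613-93634668 on the plus strand), Top2a (chr10:84473080-84473145 on the minus strand) and Mki67 (chr1:199952657-199952740 on the minus strand) show the first motif, and those of Tyms (chr9:120776083-120776150 on the minus strand), Mcm3 (chr9:30733717-30733763 on the minus strand) and Mcm6 (chr13:42404450-42404521 on the minus strand) the second (RefSeq, GRCr8, matches in capitals).
Ttk: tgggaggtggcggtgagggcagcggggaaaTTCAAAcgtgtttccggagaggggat
Top2a: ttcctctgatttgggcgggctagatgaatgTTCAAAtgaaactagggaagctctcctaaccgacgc
Mki67: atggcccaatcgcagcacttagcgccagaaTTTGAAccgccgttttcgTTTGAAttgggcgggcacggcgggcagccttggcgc
Tyms: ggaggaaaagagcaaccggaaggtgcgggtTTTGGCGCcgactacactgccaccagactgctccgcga
Mcm3: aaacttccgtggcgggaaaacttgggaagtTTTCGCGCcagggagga
Mcm6: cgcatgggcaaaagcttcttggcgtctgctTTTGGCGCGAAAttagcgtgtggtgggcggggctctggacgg
The match lies at base 5 after the start of Ttk, at -22 in Top2a and from -117 in Mki67, which holds 2. In Tyms, the thymidylate synthase gene, which rose by 1.62 ± 0.29, it begins at -37, in Mcm3 at 14 and in Mcm6 at -139.

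Myelin genes fell. Of 24 genes of compact myelin and the paranode, 18 fell and 1 rose (median -0.87), with 15 lower under total counts and none higher without any one of 1M replicates 2 and 3 and control replicates 2 and 3. Mbp, the myelin basic protein, had 26099, 24432 and 23056 CPM in the 1M libraries, against 57934, 66715 and 61459.9 CPM in the control libraries (-1.34 ± 0.11), the largest fall of any gene in CPM. In the FPKM table Mbp is listed at 0.1 in control replicate 3, the value the authors set for anything lower, although its count there was high. Fa2h, which hydroxylates myelin lipids, had 155, 146 and 168 CPM at 1M against 547, 550.2 and 500.2 CPM in control (-1.77 ± 0.091) (larger adjusted p of both genes = 7.77e-06). Summed over the 24 genes, 1M libraries held 43205 to 46324 CPM and control libraries 98433 to 103838 CPM.

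Genes of oligodendrocyte precursors were split. Of 12, 4 rose and 6 fell (median -0.24), and with total counts or the upper quartile 5 rose and 4 fell, and 2 rose without 1M replicate 3, control replicate 2 or control replicate 3, so no direction holds for the list. Gpr17, a marker of precursors that begin to differentiate, had 10.1, 13.3 and 22.5 CPM in the 1M libraries, against 9.99, 3.44 and 6.5 CPM in the control libraries, and did not pass without 1M replicate 3, control replicate 2 or control replicate 3. The lowest 1M library of Gpr17 lay close to the highest control library. Pdgfra, the growth factor receptor of precursors and fibroblasts, had 0.29 (adjusted p = 0.101, 0.0292 and 0.049 without 1M replicate 1 and control replicate 1). The lineage factor gene Olig1 fell, with 240.5, 215 and 193 CPM at 1M against 457, 547 and 477 CPM in control, with no overlap between the groups. Of 15 Schwann cell genes, 5 rose and 2 fell (median 0.21, lowest log2 fold change -1.1). The 15 genes together ranged from 8106 to 8953 CPM per library at 1M and from 9278 to 10252 CPM in control. The genes named next are among those that rose. Scn7a, a channel of non-myelinating Schwann cells, had 26.8, 58.6 and 62.8 CPM in the 1M libraries, against 10.3, 2.84 and 7.12 CPM in the control libraries (2.83 ± 0.39), and Ngfr, the neurotrophin receptor of Schwann cells, rose by 1.64 ± 0.13. Egr2, the regulator of Schwann cell myelin, rose by 1.75 ± 0.22 (adjusted p = 1.45e-04).

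Neuronal genes fell across the cytoskeleton, the synapse and the peptides. Of 14 genes of neurofilaments and the axonal cytoskeleton, 12 fell and 1 rose (median -1.26). Nefh, the heavy neurofilament, had 753, 631 and 589 CPM in the 1M libraries, against 2279.9, 2619 and 1648 CPM in the control libraries (-1.73 ± 0.42), and Stmn3, a regulator of microtubules, had 232, 173 and 139 CPM at 1M against 645, 1084 and 674 CPM in control (-2.14 ± 0.35). Neither overlapped between the groups. Gap43, the growth cone protein, had 190.5, 153 and 132 CPM at 1M against 165, 201 and 146 CPM in control and did not pass (adjusted p = 0.571). Of 19 synaptic vesicle genes 13 fell and none rose (median -0.99), with 10 lower under total counts. Cplx1, which clamps vesicle fusion, had 309.6, 254 and 220.3 CPM in the 1M libraries, against 982, 998 and 805 CPM in the control libraries (-1.83 ± 0.42), and Snap25, part of the fusion machine, fell by 1.52 ± 0.41 on the log2 scale (largest adjusted p of the 4 that fell = 0.00915).

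Some genes of inhibitory and of glutamate transmission were lower at 1M, by a number that depended on the setting. Of 17 inhibitory genes 9 fell and 1 rose (median -0.88), and of 17 glutamate genes 9 fell and 2 rose (median -0.71). Downregulated DEGs numbered 2 and 3. With total counts 4 inhibitory and 5 glutamate genes fell, as they did without 1M replicate 2, and 5 glutamate genes fell without control replicate 2. Of all 14437 members, 4671 fell, against 3008 with total counts, 3882 without 1M replicate 2 and 3991 without control replicate 2. Under these other settings the lists did not stand clearly apart from all members. Pvalb, the calcium buffer of fast-spiking neurons, had 36.6, 27.1 and 20.8 CPM in the 1M libraries, against 99.8, 169 and 101 CPM in the control libraries. Slc32a1, the vesicular transporter of GABA and glycine, had a log2 fold change of -1.5 ± 0.36, and Slc17a6, that of glutamate, -1.21 ± 0.34 (largest adjusted p = 0.0123). Gabra2, a GABA receptor subunit, rose, with 13.3, 19.6 and 30.9 CPM at 1M against 9.43, 3.56 and 7.98 CPM in control. The glutamate receptor gene Grm5 rose too, by 1.75 ± 0.50, but not without control replicate 3 (adjusted p = 0.0591), where 1 glutamate gene rose. Chat, the enzyme of acetylcholine synthesis in motor neurons, had 15, 14.4 and 15.4 CPM in the 1M libraries, against 38.5, 33.3 and 28.4 CPM in the control libraries (-1.16 ± 0.36, adjusted p = 0.0188, 0.0571 without 1M replicate 2 and 0.0502 without control replicate 1). In a motor neuron list of 9, 5 fell and 2 rose, and 1 rose without any one of 1M replicates 1, 2 and 3 and control replicate 2, and none without control replicate 3. Of 19 voltage-gated channel genes, 8 fell and 1 rose (median -0.36), led by the sodium channel subunit gene Scn4b at -1.58 ± 0.23, and with total counts or the upper quartile 5 fell and 3 rose. The number that fell was also 5 without 1M replicate 2, 1M replicate 3 or control replicate 1, and 3 rose without 1M replicate 1 or control replicate 1 and none without any other single library.

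Most neuropeptide genes fell, and a few rose. Of 16, 11 fell and 2 rose (median -1.05), with 1 that rose without control replicate 3. Cck, the cholecystokinin gene, had 22.6, 16.7 and 10.7 CPM in the 1M libraries, against 43.1, 90.3 and 44.1 CPM in the control libraries (-1.81 ± 0.40), and Sst, the somatostatin gene of inhibitory interneurons, fell by 1.51 ± 0.29 on the log2 scale. Calca, which encodes the peptide CGRP of sensory and motor neurons, rose, with 56.7, 60.1 and 50.1 CPM at 1M against 27.3, 20.6 and 10.9 CPM in control (1.52 ± 0.45, largest adjusted p of these 3 genes = 0.0146). Without control replicate 3 Calca did not pass (adjusted p = 0.0542). Ucn, a stress peptide of the corticotropin-releasing family, had 4.55, 5.83 and 2.17 CPM in the 1M libraries, against 0, 0.119 and 0 CPM in the control libraries. Control held 1 count of Ucn in all, and the ratio of pooled counts was 158 (95% counting interval 28.3 to 6273). It was 82.7 without control replicate 3, and without control replicate 2, which holds the count, Ucn was at least 40.7-fold higher.

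Reactive astrocyte genes rose, and genes of astrocyte transport went both ways. Of 16 reactive genes, 14 rose and none fell (median 1.48). Gfap, the filament protein of astrocytes, had 16126, 14399.5 and 13029 CPM in the 1M libraries, against 6933, 7508 and 7397 CPM in the control libraries (1.00 ± 0.10), and Vim, a filament protein shared with other cells, had 2498, 2227 and 1856 CPM at 1M against 798, 634 and 868 CPM in control. Every 1M library was above every control library for both. Osmr, the receptor of oncostatin M, rose by 2.92 ± 0.30, and Cp, the copper protein ceruloplasmin, by 2.38 ± 0.23 (largest adjusted p of these 4 genes = 1.04e-04). Of 17 genes of transport and homeostasis 5 rose and 7 fell (median 0.023), while with total counts 7 rose and 5 fell and without 1M replicate 3 or control replicate 3 there were 3 that rose. Slc7a10, an amino acid carrier, fell, with 38.2, 41.6 and 23.2 CPM in the 1M libraries, against 92.8, 107 and 88.7 CPM in the control libraries (-1.48 ± 0.46, not passed without 1M replicate 3, adjusted p = 0.0677), and the bicarbonate carrier gene Slc4a4 rose by 2.11 ± 0.36. Aqp4, the water channel of astrocyte endfeet, had 1712, 1923 and 2586 CPM at 1M against 1588, 1438 and 1731 CPM in control and did not pass (adjusted p = 0.0523), though it did without 1M replicate 1 (0.0157). Of 9 genes of motile cilia, the mark of ependymal cells, 2 rose and 1 fell, among them the dynein gene Dnah11, which rose by 2.0 ± 0.27. The number of cilia genes that rose was 1 without each single library other than 1M replicate 1, where it was 3, and none fell without each single library other than control replicate 1.

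**Figure D4:**
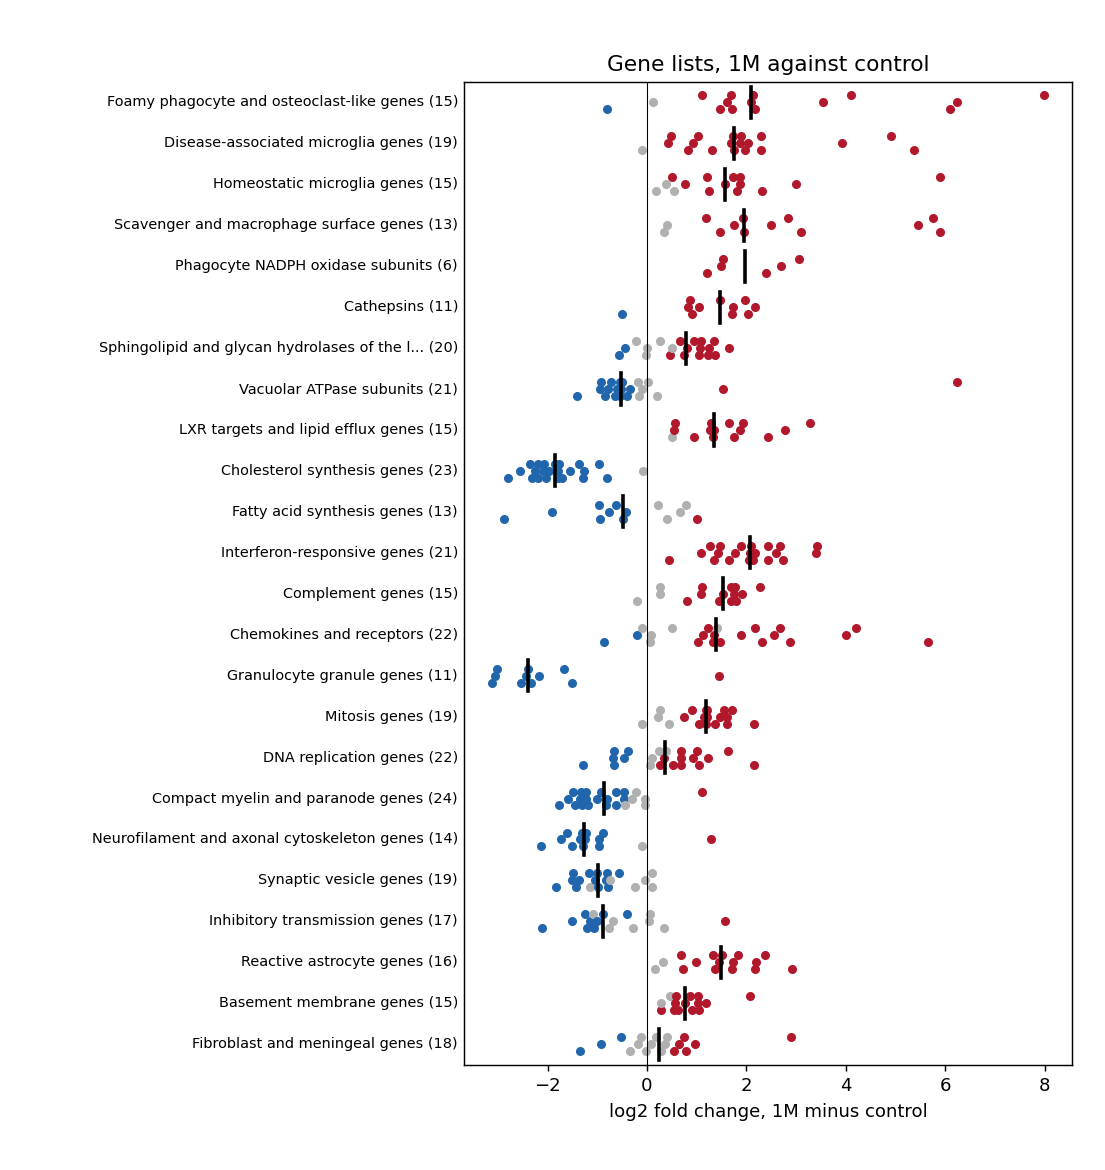
Log2 fold change, 1M minus control, of every tested member of 24 gene lists, 1 row per list, with red points for members that rose, blue points for members that fell (adjusted p under 0.05), grey points for the rest and a black bar at the median. Interferon-responsive genes lie to the right of 0 and 22 of 23 cholesterol synthesis genes are called to its left, while the vacuolar ATPase row has most points left of 0 and Atp6v0d2 far to the right.

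Lists of scar and vessel genes had smaller medians than those of phagocyte genes. Of 13 interstitial collagens 9 rose and none fell (median 0.79). Col3a1 had 805, 1138 and 768 CPM in the 1M libraries, against 455, 220.3 and 439.8 CPM in the control libraries (1.28 ± 0.28), and Col8a1, a short-chain collagen, rose by 1.71 ± 0.37. Of 15 basement membrane genes 13 rose and none fell (median 0.76), among them Col4a1 with 138, 158 and 141 CPM at 1M against 94.4, 58.1 and 61.1 CPM in control and the laminin gene Lamb1, which rose by 1.04 ± 0.15. With 1 batch per group, 8 of the 15 rose. Of 18 fibroblast and meningeal genes 6 rose and 3 fell (median 0.23), and 3 rose without 1M replicate 2 or control replicate 2. Postn, the matrix protein periostin, had 31.5, 26.3 and 18 CPM in the 1M libraries, against 3.73, 3.08 and 3.31 CPM in the control libraries (2.9 ± 0.45), and Ptgds, the prostaglandin D synthase of the meninges, fell, with 2922, 3062 and 2472 CPM at 1M against 6111, 6979 and 8454 CPM in control (-1.35 ± 0.17). The groups did not overlap in either gene, and the directions were opposite. Hpgds, the synthase of blood-derived cells that makes the same prostaglandin, had 7.54, 6.5 and 6.75 CPM at 1M against 0.0933, 0.237 and 0.171 CPM in control (5.36 ± 0.27, largest adjusted p of these 3 genes = 4.78e-04).

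Of 14 pericyte and smooth muscle genes, 7 rose and none fell, with Anpep, an aminopeptidase of pericytes and macrophages, at 1.8 ± 0.23 and Rgs5, a pericyte regulator, at 1.41 ± 0.23. Of 18 endothelial genes 9 rose and 2 fell (median 0.34). The receptor gene Tie1 rose by 1.21 ± 0.083, and Mfsd2a, the lipid transporter of the blood-brain barrier, fell, with 31.9, 32.3 and 23.9 CPM in the 1M libraries, against 69.9, 70.8 and 63 CPM in the control libraries (-1.21 ± 0.16). The glucose transporter gene of the barrier, Slc2a1, fell by 0.48 ± 0.11 on the log2 scale (largest adjusted p of these 5 genes = 0.00379).

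Proteoglycan genes went both ways. Of 16 genes of chondroitin sulfate proteoglycans and perineuronal nets 9 rose and 6 fell (median 0.39). The neurocan gene Ncan rose by 2.2 ± 0.28 and the tenascin C gene Tnc by 2.19 ± 0.22. Chsy1, which builds the chondroitin chains, had 50.1, 48.3 and 53.9 CPM in the 1M libraries, against 20.8, 17.1 and 22.6 CPM in the control libraries (1.32 ± 0.15), with no overlap between the groups. Hapln4, a link protein of nets around neurons, fell, with 107, 86.6 and 68.8 CPM at 1M against 287, 282 and 228 CPM in control (-1.6 ± 0.43), and Acan, the aggrecan gene, fell by 1.18 ± 0.35 on the log2 scale (largest adjusted p of these 5 genes = 0.0148). Of 15 secreted BMP and WNT antagonists 6 rose and 5 fell, with Sost, described above, and Sfrp2, which rose by 1.83 ± 0.65 but did not pass without 1M replicate 2 or any one control library, against the WNT inhibitor gene Sfrp5, which fell, at -0.88 ± 0.23. Without 1M replicate 2 or control replicate 2, 2 of the 15 rose.

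Iron and stress genes moved one by one. Of 14 iron and heme genes 6 rose and 5 fell. Hmox1, the inducible heme oxygenase, had 129.9, 98.4 and 89.3 CPM in the 1M libraries, against 35.2, 41.1 and 31.3 CPM in the control libraries (1.57 ± 0.16), while its constitutive counterpart Hmox2 fell by 0.96 ± 0.10 on the log2 scale. Of 8 small heat shock genes, Hspb1 rose (2 genes rose without 1M replicate 2), with 802, 754 and 449 CPM at 1M against 156, 255 and 197 CPM in control (1.72 ± 0.24), and 3 fell, most of all Hspb3, with 0.101, 0.0738 and 0.0409 CPM at 1M against 0.467, 1.54 and 0.912 CPM in control (largest adjusted p of these 4 genes = 0.00139). Hspb3 was near the floor, with 8 counts in all at 1M and 34 in control. It was a member through control replicate 2 alone.

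Some abundant genes hardly differed. Among the 100 genes with the highest mean FPKM, some of the smallest log2 fold changes were those of the ribosomal protein genes Rps20 and Rpl41. Rps20 had 181, 140.4 and 119.7 CPM in the 1M libraries, against 103, 178 and 162 CPM in the control libraries, and the groups overlapped. Of 11 genes often used as references 2 rose and 5 fell, and Gapdh, the glycolytic enzyme, had 1531, 1205 and 1064 CPM at 1M against 1665, 1786 and 1565 CPM in control (-0.40 ± 0.13, adjusted p = 0.0204, 0.0714, 0.0733 and 0.0574 without 1M replicate 2, 1M replicate 3 and control replicate 2), while Tbp, the TATA-binding protein, had -0.061 (adjusted p = 0.669). With total counts 2 of the 11 rose and 2 fell, and without 1M replicate 2, 1M replicate 3 or control replicate 2 there were 3 that fell.

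The balance of lncRNA DEGs, 83 up and 122 down, depended on the processing. It was 102 up and 67 down with total counts, 93 and 89 with the upper quartile, 182 and 129 with no FPKM filter, 173 and 139 with a minimum count in place of that filter, and 68 and 24 with a test on FPKM. LOC103691626 and LOC103691629 had no count in control. LOC103691629 had 3.2, 0.628 and 0.409 CPM in the 1M libraries, against 0, 0 and 0 CPM in the control libraries, at least 22.4-fold higher, and at least 6.41-fold without 1M replicate 1 or 11.7-fold without control replicate 3. LOC103691626 was at least 31-fold higher, with 4.41, 0.997 and 0.45 CPM at 1M against 0, 0 and 0 CPM in control, and at least 9.02-fold without 1M replicate 1 or 16.2-fold without control replicate 3. Most counts of both came from 1M replicate 1, and LOC103691629 had an FPKM over 1 in that library alone. LOC102548282 was even within 1M, with 19.96, 18.8 and 24.3 CPM in the 1M libraries, against 0.187, 0.593 and 0.399 CPM in the control libraries (5.76 ± 0.36). LOC102554575 had 40.6, 36.9 and 49.6 CPM at 1M against 2.15, 0.593 and 1.54 CPM in control (4.83 ± 0.26), and its groups did not overlap, as the choice of these lncRNAs required. Among those that fell, LOC678796 had the highest CPM of the 8 with the largest falls, with 5.4, 10.9 and 10.1 CPM in the 1M libraries, against 37.1, 47.5 and 48.6 CPM in the control libraries (-2.35 ± 0.24). LOC102550370 had 1.74, 1.73 and 2.25 CPM at 1M against 5.23, 13.6 and 7.64 CPM in control, and ENSRNOG00000055050, the largest of these falls, had 0.0404, 0.0738 and 0.0409 CPM at 1M against 0.187, 0.711 and 0.285 CPM in control, under 1 CPM in every library (largest adjusted p of the last 5 lncRNAs = 0.0077).

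The comparison of 1M with 3M asks where the first month stands apart from the third, and sets no control library against 1M, though all 11 libraries share the filter, the scaling and the estimate of the spread. Of the members, 491 (3.40%) were higher and 658 (4.56%) lower at 1M than at 3M at an adjusted p under 0.05, and 17 (0.118%) were higher and 68 (0.471%) lower at the threshold of a DEG. This last pair of numbers was not stable. Leaving out 1 library gave 0, 0 and 4 higher genes without 1M replicates 1, 2 and 3 and 0, 3 and 3 without 3M replicates 1, 2 and 3, and 1, 2 and 17 lower genes and 1, 8 and 12 in the same order. Within batch 2, which holds 1M replicates 1 and 2 and all 3M libraries, a fit of these 5 libraries gave 264 higher and 139 lower genes. The same 1M and 3M libraries, compared without 1M replicate 3 in the larger fit, gave 4 higher and 17 lower. These fits differ in whether the other groups share the scaling and the spread, not in the 1M and 3M libraries compared. Values of named genes within batch 2 are given in parentheses.

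Some phagocyte, mitosis, synaptic and sterol genes were higher at 1M than at 3M, where the median difference over all members was 0.02. Of the 15 foamy phagocyte genes 5 were higher, and Spp1 had 1069.8, 789.5 and 987 CPM at 1M against 231, 356 and 159 CPM at 3M (1.93 ± 0.24, adjusted p = 0.00348, 1.89 ± 0.34 within batch 2). Ucn had 4.55, 5.83 and 2.17 CPM at 1M against 0.185, 0.221 and 0.126 CPM at 3M (4.51 ± 0.48, 4.81 ± 0.30 within batch 2). No 3M library came near the lowest 1M library in either gene. Olr1, a scavenger receptor for oxidized lipoprotein, had 26.6, 33 and 40.7 CPM at 1M against 10.2, 13.5 and 9.61 CPM at 3M (1.59 ± 0.24, 1.41 ± 0.17 within batch 2). Of 19 mitosis genes 6 were higher and none lower, with the kinase gene Cdk1 at 1.06 ± 0.28 (1.27 ± 0.25 within batch 2). Of 19 synaptic vesicle genes 6 were higher and none lower (median 1.07). Of 23 cholesterol synthesis genes 8 were higher and none lower, and Hmgcs1 had 0.74 ± 0.14 (0.57 ± 0.096 within batch 2, largest adjusted p of the last 4 genes named = 0.0444).

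Meningeal, basement membrane, pericyte and cilia lists held a larger share of genes lower at 1M than at 3M than the members did. Of 18 fibroblast and meningeal genes 10 were lower and none higher (median -0.79). Ptgds had 2922, 3062 and 2472 CPM at 1M against 11204, 9423 and 9078 CPM at 3M (-1.81 ± 0.18, -1.74 ± 0.13 within batch 2), and Igf2, a growth factor of the meninges, had 358, 529.8 and 721 CPM at 1M against 1759.8, 1792 and 1346 CPM at 3M (-1.61 ± 0.23, -1.89 ± 0.21 within batch 2). The ranges of both genes were apart between the times. Of 14 pericyte and smooth muscle genes 4 were lower, of 15 basement membrane genes 4, of 15 BMP and WNT antagonists 6 and of 9 cilia genes 4, with none of these lists holding a gene that was higher. Of 18 endothelial genes 1 was higher and 1 lower. Wnt6, a WNT ligand, had 18.7, 21.6 and 17.1 CPM at 1M against 68.7, 59.9 and 68.8 CPM at 3M (-1.78 ± 0.18, -1.72 ± 0.11 within batch 2, largest adjusted p of these 3 genes = 0.00522). Interferon-responsive genes had a median difference of 0.34 and none of the 21 passed.

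**Figure D5:**
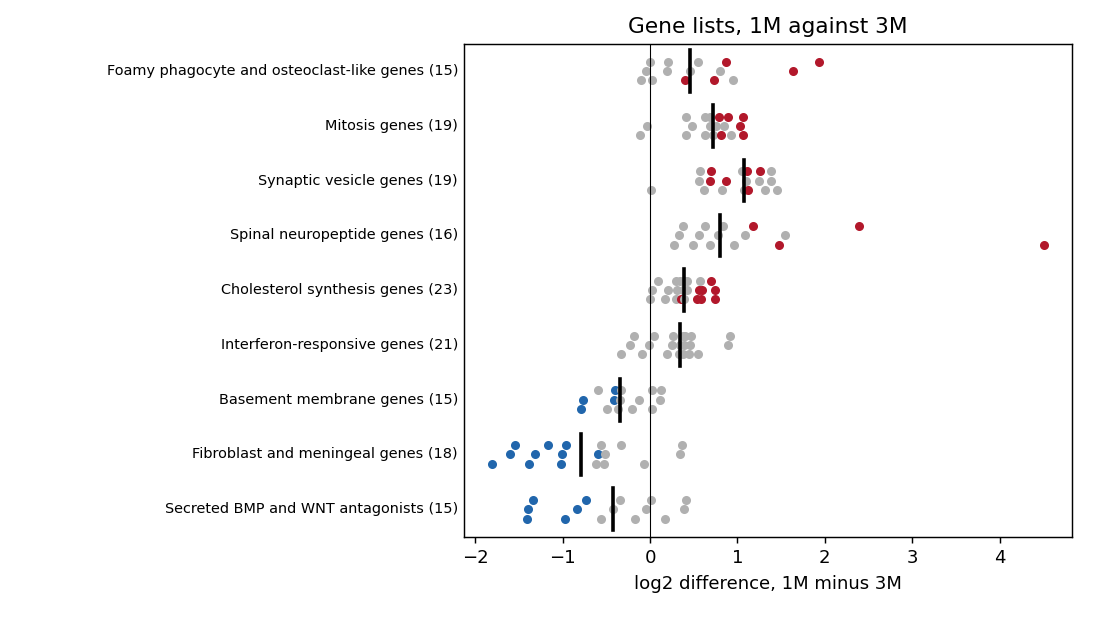
Log2 difference, 1M minus 3M, of the tested members of 9 gene lists, 1 row per list, with red points for members higher at 1M, blue points for members lower at 1M (adjusted p under 0.05), grey points for the rest and a black bar at the median. Mitosis and synaptic vesicle genes lie mostly to the right of 0 and fibroblast and meningeal genes mostly to its left.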

How the data were processed

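RNA from pools of 3 rats was sequenced by the authors as 100-base paired-end reads and aligned with TopHat2 2.1.0 to Rnor6. The deposited raw counts per gene came from HTSeq, with no version or strand setting stated in the sources used here, and the deposited FPKM values from Cufflinks 2.2.1, with values under 0.1 set to 0.1 (41.8% of values). Counts of similar or overlapping genes may therefore be shared or lost.

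Members had an FPKM over 1 in any of the 6 libraries. Counts were tested with edgeR 4.0.16 (R 4.3.3; quasi-likelihood, TMM, all 11 libraries sharing one estimate of the spread). "Rose" and "fell" mean an adjusted p under 0.05, and a DEG had an adjusted p under 0.01 with more than a 2-fold change. Alternatives used limma 3.58.1, DESeq2 1.42.0, other scalings, filters and left-out libraries. Promoters and motif positions came from RefSeq, GRCr8, not from the build of the files. The members, the 49 gene lists and the tests were chosen with earlier results of these data known. For each list, the genes named are those with the largest changes that passed, plus members that define the list. Other named genes have the largest changes in CPM, or the largest folds among DEGs whose 1M and control libraries did not overlap. For genes picked by fold, the lack of overlap was thus set by the choice. A few others were named after their values were seen. The model was tested on simulated data. P-values measure the spread between pools. Results for some genes are not reported here.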

Additional observations from a re-analysis of the deposited data

Results flagged for a closer look

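By edgeR's quasi-likelihood test of 1M against 3M, 491 members were higher and 658 lower at 1M at an adjusted p under 0.05. At the threshold of a DEG, 17 genes were higher and 68 lower at 1M. Of these, 78 were also called in a fit of the 5 libraries of batch 2, which holds both times. That fit reuses the same 1M and 3M libraries except 1M replicate 3, so the overlap is not an independent check. Ucn, Spp1, Olr1, Ptgds, Wnt6 and Igf2 are described above with their libraries, and their log2 differences were 4.51, 1.93, 1.59, -1.81, -1.78 and -1.61.

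Of the other genes with the largest differences, Calcb, which encodes a second CGRP peptide, had 11.5, 9.3 and 9.53 CPM at 1M against 3.56, 4.57 and 2.77 CPM at 3M (1.48 ± 0.24, 1.51 ± 0.22 within batch 2), and Olfm3, an olfactomedin gene of neurons, had 1.74 (batch 2, 1.67 ± 0.22). Tnfrsf13c, the BAFF receptor, had 1.43 (batch 2, 1.45 ± 0.24), Crym, a thyroid hormone-binding crystallin, 1.26 (batch 2, 1.28 ± 0.17) and Grxcr1, a gene of hair cell stereocilia, 1.37 (batch 2, 1.33 ± 0.15). LOC102551701 had 2.64 (batch 2, 2.72 ± 0.21) and LOC100359539 1.62 (batch 2, 1.78 ± 0.28). Among genes lower at 1M, Thrsp, a regulator of lipid synthesis, had 13.4, 10.6 and 13.3 CPM at 1M against 59.2, 48.3 and 48.3 CPM at 3M (-2.06 ± 0.18, -2.12 ± 0.15 within batch 2). Ccl19, a chemokine of lymphoid tissue, had -1.59 (batch 2, -1.49 ± 0.11), the meningeal transporter gene Slc22a6 -1.55 (batch 2, -1.55 ± 0.12) and the transcription factor gene Osr1 -1.52 (batch 2, -1.53 ± 0.18). The cardiac troponin gene Tnnt2 had -1.59 (batch 2, -1.46 ± 0.09), the collagen-processing enhancer gene PCOLCE2 -1.57 (batch 2, -1.68 ± 0.20) and LOC685513 -1.82 (batch 2, -1.91 ± 0.18). The adjusted p of these genes was at most 0.00978 by edgeR's quasi-likelihood test.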

How the results depend on the processing

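Counts of protein-coding DEGs were 1443 up and 919 down and of lncRNAs 83 up and 122 down. Down counts were 446 and 67 with total counts, 366 and 24 with limma on log2(FPKM + 1), and 471 and 33 with a pseudocount of 0.1, which gave 2746 and 174 up. Upregulated lncRNAs numbered 182 with no FPKM filter and 173 with a minimum count, and 76 lncRNAs fell in a fit of the 6 libraries alone. With 1 batch per group the counts were 942 up, 553 down, 39 and 53, and at a fold change over 4 they were 379, 60, 41 and 12. Leaving out 1 library gave 1148 to 1646 genes up, 566 to 1058 down, 53 to 102 lncRNAs up and 76 to 132 down. Genes higher and lower at 1M than at 3M numbered 8 higher with total counts, 9 higher with FPKM + 1, 5 and 39 with FPKM + 0.1, 31 and 109 with no filter, 215 and 164 with DESeq2's Wald test, and 264 and 139 within batch 2, and 0 to 4 and 1 to 17 when 1 library was left out. The fit within batch 2 compared the same 1M and 3M libraries as the fit without 1M replicate 3, but left the other groups out. The cause of these changes in the counts was not tested.

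The replicate numbers were not used as pairs in the main fit. Same-numbered deviations from the group means correlated at -0.46, -0.11 and 0.17, and different-numbered ones at -0.47 to 0.52. Deviations within a group sum to 0, so these values cannot settle whether the numbers pair the samples. With the number as a replicate block there were 1294 protein-coding genes up and 860 down, 66 lncRNAs up and 108 down, and 3 genes higher and 10 lower than at 3M.

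Among the genes named, the log2 fold change changed sign with limma on FPKM + 1 and FPKM + 0.1 for Mbp (3.66 and 4.48), Kif20a (0.65 and 0.98), Tbp (0.40 and 0.49) and Olfm3 (0.062 and 0.093). For Mbp, FPKM is listed at 0.1 in control replicate 3 and at 17400.4 and 16699.8 in control replicates 1 and 2, while counts were high in all 3. The cause was not tested for the other 3 genes.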

Other observations

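Among the largest changes in CPM, genes not described above included Clu, the chaperone clusterin, with 5586, 4755 and 4679 CPM in the 1M libraries, against 2168, 2453 and 2345 CPM in the control libraries (1.11 ± 0.11), and B2m, the light chain of MHC class I, with 2346, 1881 and 1739 CPM at 1M against 827, 1015 and 1081 CPM in control (1.03 ± 0.16). Lgals3, the galectin of activated phagocytes, had 1187, 897 and 655 CPM at 1M against 68, 81.1 and 85.5 CPM in control, and no control library reached the 1M libraries in any of the 3 genes. Among the falls, Cnp, an enzyme of myelin, had 1538, 1319 and 1562 CPM in the 1M libraries, against 3174, 3710.4 and 3494 CPM in the control libraries (-1.23 ± 0.10), and the tubulin gene Tuba1a had 1032, 809.8 and 792 CPM at 1M against 1816, 2497 and 1879 CPM in control (-1.23 ± 0.15). Tecr, which completes the elongation of very long fatty acids, fell by 1.6 ± 0.16 on the log2 scale (largest adjusted p of the 6 genes = 4.67e-04). Mmp7, the protease matrilysin, had 2.51, 1.51 and 0.573 CPM at 1M against 0, 0 and 0 CPM in control, at least 21.7-fold higher, since control held no count, and at least 13.1-fold without 1M replicate 1 or 11.3-fold without control replicate 3.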
